A study of Homo sapiens with 5 samples.

Results

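The genes described are 9 human astrocyte genes, some of which serve to keep the fluid around neurons in balance: AQP4, GJA1, GJB6, SLC1A2, SLC1A3, GLUL, ALDOC, ALDH1L1 and S100B. They were listed by name, with earlier results of these data known, and all 9 were found by symbol and gene identifier among the 32732 genes that the human-reference tables of the 5 libraries list in common. Single-cell RNA was counted in human brain organoids grown from H9, an established human embryonic stem cell line, before and after grafting into the mouse brain. The labels give the genotype as WT, and the study's methods name the sequenced line AAVS-ChR2-EYFP H9, which carries a light-gated cation channel (ChR2) with a fluorescent protein. The hosts were SCID mice of 6 to 8 weeks, named SCID-Beige elsewhere in the study, a strain that lacks functional T and B lymphocytes and, with the beige mutation, has impaired natural killer cells. D0 is the organoid on day 42 of culture, the day of transplantation. The 4 grafts were taken from the hippocampus (HIP) or the prefrontal cortex (PFC) at 2 months post-transplantation (HIP_2MPT and PFC_2MPT) or at 4 months (HIP_4MPT and PFC_4MPT). Grafted cells carried the fluorescent protein EYFP and were dissected out under fluorescence, so host cells could come along and were removed by their reads. Every group is 1 library from 1 cell line. The study gives a total of grafted mice, but the number of mice behind a library was not stated. The HIP and PFC libraries of a stage served as its 2 replicates. Whether they came from separate mice was not stated either, so p-values measure the spread between these libraries only.

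Astrocytes take up water, ions and transmitter that neurons release, and pass them on through a network of coupled cells. AQP4 is the water channel of their end-feet on blood vessels. GJA1 (connexin 43) and GJB6 (connexin 30) form the gap junctions between them. The membrane transporters SLC1A2 (GLT-1) and SLC1A3 (GLAST) clear glutamate from the synapse, and GLUL, glutamine synthetase, turns it into glutamine. ALDOC is a glycolytic aldolase, ALDH1L1 a folate enzyme used as a pan-astrocyte label, and S100B a calcium-binding protein that oligodendrocyte-lineage cells also make. Several of these genes are not exclusive to astrocytes in the developing brain, where radial glia carry SLC1A3 as well.

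Human cells numbered 34390. D0 gave 4885, HIP_2MPT 8277, PFC_2MPT 5952, HIP_4MPT 6913 and PFC_4MPT 8363 of them. D0 stood apart in depth, with a median of 9847 UMIs (unique molecular identifiers, each 1 captured transcript) per cell against 1253 to 2759 in the grafts. PFC_4MPT had the highest median mitochondrial share, 7.31% against 2.35 to 3.77% elsewhere. Between libraries, 104 barcodes recurred. D0 was also dissociated with another enzyme and counted with another gene annotation than the grafts, so those differences and transplantation cannot be told apart. Levels are CPM, the UMIs of a gene summed over the cells of a library and scaled to a common total of human UMIs, and their 95% Poisson intervals cover counting error only. Values given for all libraries without names follow the order D0, HIP_2MPT, PFC_2MPT, HIP_4MPT, PFC_4MPT, and those for grafts the same order without D0.

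Cells were grouped by clustering from which the 9 genes were left out, although genes that vary with them still shaped it, so differences between cell classes are given as a description with no test. The astrocyte-like class, named from GFAP, HOPX, AGT, SPARCL1, CLU, APOE, FGFR3 and EDNRB, held 316 cells of HIP_2MPT and 356 of PFC_2MPT, 584 of HIP_4MPT and 465 of PFC_4MPT, and 101 of D0. All 8 markers had UMIs in every graft, and their summed level was 1696 and 2624 CPM at 2MPT and 12028 and 8097 CPM at 4MPT. In D0 the class fitted its name less well. GFAP was at 0 there, the 8 markers summed to 762 CPM, and the 5 choroid plexus markers summed to 1514 CPM against 7.08 to 16.1 CPM in the grafts. The class joined cluster 6, with all of its D0 cells and 306, 355, 410 and 331 cells, and cluster 17, with 10, 1, 174 and 134 graft cells and 0 of D0. Most of it therefore lay in cluster 6 at every stage, and cluster 17 was almost wholly of 4MPT.

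Between 2MPT and 4MPT, 7 of the 9 genes rose in the astrocyte-like cells of the grafts: AQP4, GJA1, GJB6, SLC1A2, ALDOC, ALDH1L1 and S100B. SLC1A3 and GLUL did not pass the test. Over all 12387 genes tested in these cells, 2.05% rose and 2.66% changed in either direction (edgeR quasi-likelihood test, Benjamini-Hochberg adjusted p under 0.05). The median log2 fold change of the 9 genes was 3.02, and that of all genes tested was −0.01. The groups did not overlap, both 4MPT libraries lying above both 2MPT libraries, for 8 of the 9 genes, against 20.7% of all genes tested.

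**Figure D1:**
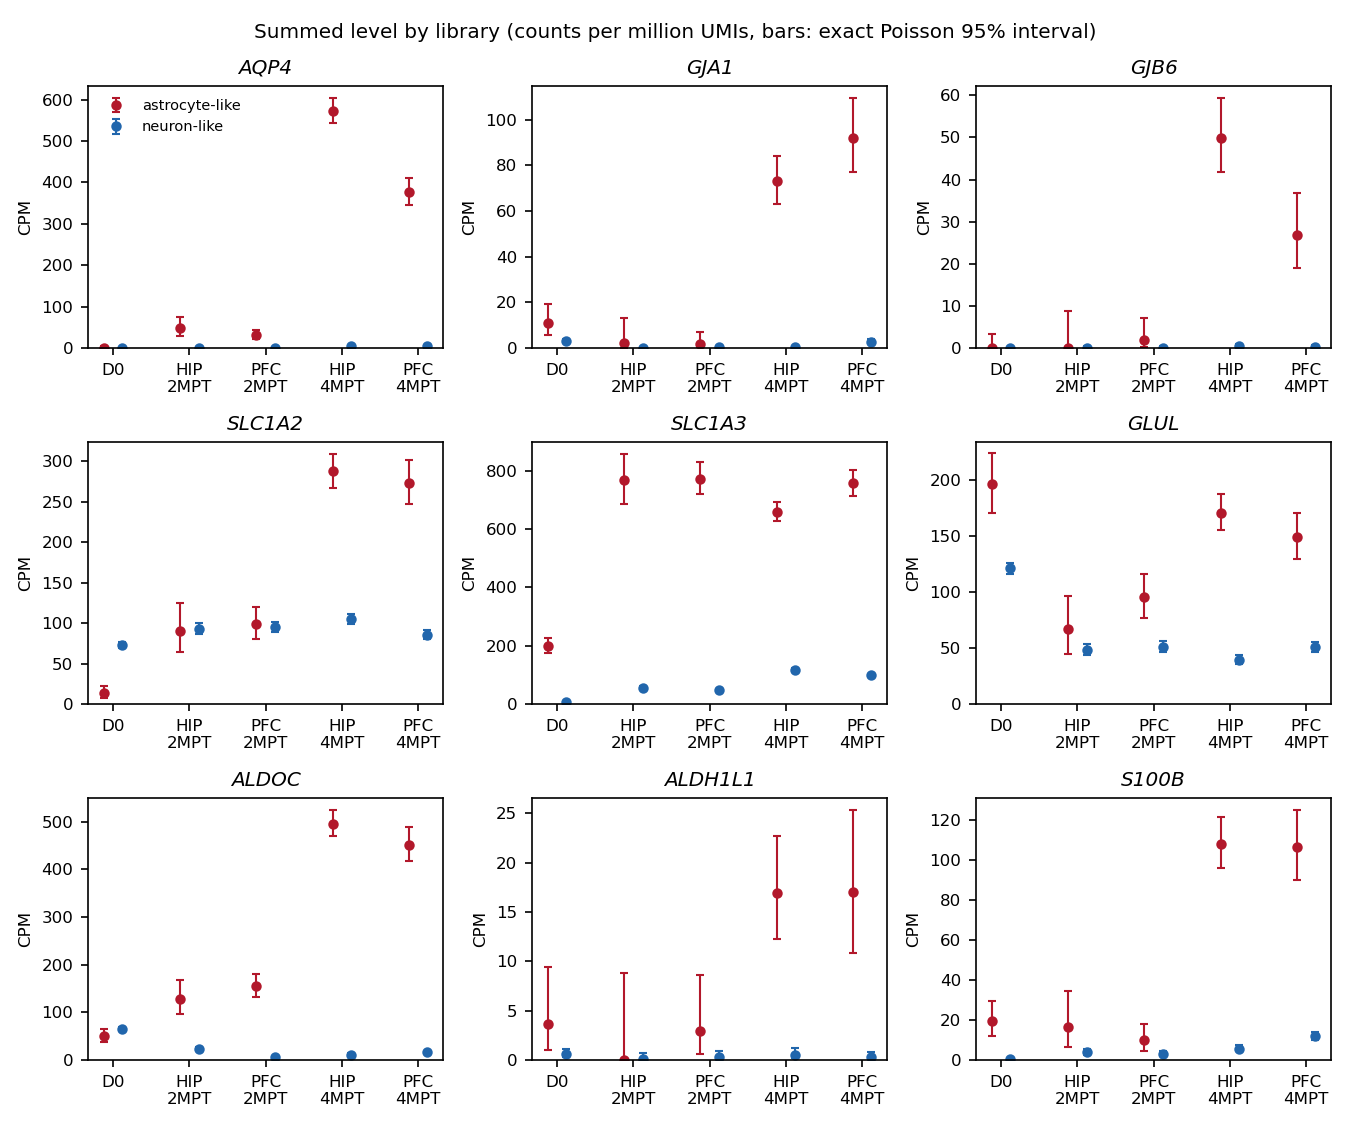
Level of each gene in each library in CPM (vertical axis, from 0), summed over astrocyte-like cells and over neuron-like cells, with exact Poisson 95% intervals. In the astrocyte-like cells AQP4 stood at 573 and 378 CPM in the 4MPT grafts against 47.7 and 31.5 CPM in the 2MPT grafts, while SLC1A3 lay between 660 and 774 CPM in all 4 grafts.

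The water channel gene AQP4 had the clearest rise in depth of counts. AQP4 (ENSG00000171885) occupies chr18:26852043-26865771 on the minus strand of GRCh38, with 5 exons in its canonical transcript and an antisense gene, AQP4-AS1, across it. In astrocyte-like cells HIP_2MPT had 47.7 CPM (95% interval 29.1 to 73.7), PFC_2MPT 31.5 CPM (21.5 to 44.4), HIP_4MPT 573 CPM (544 to 603), PFC_4MPT 378 CPM (347 to 411) and D0 0.919 CPM (1 UMI). Both 4MPT grafts lay far above both 2MPT grafts, and the 4MPT grafts differed from each other beyond their counting intervals. The mean over the 2 libraries of a stage was 475 ± 138 CPM (SD) at 4MPT against 39.6 ± 11.5 CPM at 2MPT, a log2 fold change of 3.69 (SE 0.33, edgeR adjusted p = 1.05e-05). To compare cells of different depth, each cell was also thinned to 1000 UMIs, and AQP4 was then detected in 4.53 and 4.35% of the astrocyte-like cells at 2MPT and 40.2 and 27.0% at 4MPT, HIP before PFC, and in 0 of the 91 cells of D0. Without thinning these shares were 6.01, 7.58, 79.5 and 50.1%. Thinned neuron-like cells, which should lack AQP4, held it in at most 0.452% of cells in any library. Thinning kept 91, 243, 345, 575 and 459 astrocyte-like cells of the 5 libraries.

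The promoters of AQP4, ALDH1L1 and SLC1A3 are shown because the first 2 genes rose with stage in astrocyte-like cells while SLC1A3 did not pass the test, and because their windows hold no exon of their own gene. The ALDH1L1 window lies inside the longer gene model of GENCODE, in an intron, and those of AQP4 and SLC1A3 lie upstream of theirs. Each run is the 250 bases before the most upstream RefSeq start (GRCh38.p14), 5′ to 3′ on the strand of the gene. Capitals mark matches to letters searched on both strands: AACAAT (a SOX-type site), TTCNNNGAA (a STAT-type site) and GGGCGG (a GC box). The letters for the palindromic nuclear factor I site, its one-sided form (TTGGCA) and a TATA box (TATAAA) were searched as well. AQP4 at chr18:26865804-26866053, minus strand, 30.4% G or C:
AQP4: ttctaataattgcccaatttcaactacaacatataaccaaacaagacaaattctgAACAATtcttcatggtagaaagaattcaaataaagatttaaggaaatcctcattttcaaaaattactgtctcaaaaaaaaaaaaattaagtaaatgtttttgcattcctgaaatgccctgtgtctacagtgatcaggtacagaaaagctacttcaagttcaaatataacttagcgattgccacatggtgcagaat
ALDH1L1 at chr3:126181187-126181436, minus strand, 60% G or C:
ALDH1L1: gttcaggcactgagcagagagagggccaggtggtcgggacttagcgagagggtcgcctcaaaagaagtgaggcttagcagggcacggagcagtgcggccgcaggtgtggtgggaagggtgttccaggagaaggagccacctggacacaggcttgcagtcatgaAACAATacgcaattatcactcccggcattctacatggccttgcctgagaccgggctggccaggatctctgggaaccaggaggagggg
SLC1A3 at chr5:36596338-36596587, plus strand, 43.2% G or C:
SLC1A3: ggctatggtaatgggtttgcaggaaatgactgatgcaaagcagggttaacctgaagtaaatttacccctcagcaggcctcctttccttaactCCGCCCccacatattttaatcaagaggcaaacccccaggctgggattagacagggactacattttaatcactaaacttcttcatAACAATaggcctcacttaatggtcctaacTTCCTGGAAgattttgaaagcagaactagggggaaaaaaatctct
All 3 windows held the SOX-type letters, which occur in 8.98% of 35116 promoters of the same length. Of the 7 genes with a promoter entry these were the 3 that did. GJA1, GJB6, GLUL and ALDOC had no match to the SOX-type letters. The window of GJB6 held the one-sided nuclear factor I letters 1 time, and those of GLUL and ALDOC the GC box 2 times each. The STAT-type letters of SLC1A3 occur in 6.57% and the GC box in 42.6% of the 35116 promoters. The nuclear factor I letters, found in none of the 3 windows shown, occur in 0.0285% (whole site) and 10.8% (one-sided form). TATAAA occurs in 10.7%. A match is a description of letters and not a bound site.

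Of the gap junction genes, GJA1 (ENSG00000152661, chr6:121435595-121449727, plus strand, 2 exons) was near the counting floor at 2MPT. The astrocyte-like cells gave 11.0 CPM in D0, 2.39 CPM in HIP_2MPT, 1.97 CPM in PFC_2MPT, 72.9 CPM in HIP_4MPT and 92.0 CPM in PFC_4MPT. Both 4MPT grafts lay above D0 and both 2MPT grafts below it. GJA1 rose between the graft stages with a log2 fold change of 5.26 (SE 0.51, edgeR adjusted p = 1.62e-05). The size of this rise is loosely fixed, since 3 UMIs were counted at 2MPT against 320 at 4MPT, a ratio of CPM of 38.1 with a 95% counting interval of 12.9 to 186. Thinned shares were 0 and 0.290% of cells at 2MPT and 7.30 and 6.10% at 4MPT (0.316, 0.562, 18.8 and 18.3% without thinning).

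GJB6 (ENSG00000121742, chr13:20221962-20232365, minus strand, 5 exons) had no UMI in the astrocyte-like cells of D0 and HIP_2MPT, stood at 1.97 CPM in PFC_2MPT, 49.9 CPM in HIP_4MPT and 26.9 CPM in PFC_4MPT. Its log2 fold change between the graft stages was 4.77 (SE 0.70, edgeR adjusted p = 0.00108), on 2 UMIs at 2MPT against 168 at 4MPT, a ratio of 30.0 (counting interval 8.18 to 250). Against D0, taken at a floor of 3 counts, 4MPT was 15.2-fold higher in CPM. The 2 connexin genes thus shared a near absence at 2MPT, and GJA1 alone had transcripts in D0.

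The glutamate transporter genes differed from each other. SLC1A2 (ENSG00000110436) lies at chr11:35251205-35420063 on the minus strand with 11 exons, and SLC1A3 (ENSG00000079215) at chr5:36596588-36688334 on the plus strand with 10. SLC1A2 stood at 13.8 CPM in the astrocyte-like cells of D0, 90.7 CPM in HIP_2MPT, 98.3 CPM in PFC_2MPT, 287 CPM in HIP_4MPT and 273 CPM in PFC_4MPT, so that libraries of a stage lay close together and the stages apart. The rise from 94.5 ± 5.40 to 280.2 ± 9.87 CPM (SD, n = 2 libraries) corresponded to a log2 fold change of 1.596 (SE 0.26, edgeR adjusted p = 0.0024). At 2MPT thinned astrocyte-like cells held SLC1A2 in 7.82 and 8.70% of cells, no more than the 8.26 and 8.80% of neuron-like cells. At 4MPT the shares were 23.0 and 20.04% against 9.57 and 7.70%, and the unthinned shares in astrocyte-like cells ran from 10.8% in HIP_2MPT to 62.5% in HIP_4MPT.

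SLC1A3 stood at 199 CPM in D0, 768 CPM in HIP_2MPT, 774 CPM in PFC_2MPT, 660 CPM in HIP_4MPT and 758 CPM in PFC_4MPT in the same cells. Both 2MPT grafts lay slightly above both 4MPT grafts, PFC_4MPT within the counting interval of PFC_2MPT, with means of 709 ± 69.4 CPM (SD, n = 2 libraries) at the later and 771 ± 3.82 CPM at the earlier stage. The log2 fold change was −0.08 (SE 0.24, edgeR adjusted p = 0.937), which does not show that the stages were equal. Thinned cells held it in 52.3, 48.4, 47.3 and 49.7% of the astrocyte-like cells of the 4 grafts and in 15.4% of those of D0 (59.5, 79.2, 88.9, 80.2 and 64.4% without thinning). Of the 9 genes, SLC1A3 had the smallest fold change between graft stages in these cells.

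GLUL (ENSG00000135821, chr1:182378098-182392206, minus strand, 7 exons), the enzyme that uses the glutamate taken up, was as high in D0 as in the 4MPT grafts. It stood at 197 CPM in the astrocyte-like cells of D0, 66.8 CPM in HIP_2MPT, 95.4 CPM in PFC_2MPT, 171 CPM in HIP_4MPT and 149 CPM in PFC_4MPT. Both 4MPT grafts lay above both 2MPT grafts, but the log2 fold change of 0.98 (SE 0.28) had an edgeR adjusted p of 0.0799 and did not pass. It passed without PFC_2MPT (log2 fold change 1.35, adjusted p = 0.0212), with no filter on low counts (0.0310) and without integration (0.0418), in a range of 0.0212 to 0.521 over 16 alternatives. Thinned shares were 15.4, 6.17, 10.4, 14.8 and 12.2%, and 76.2, 8.54, 23.3, 44.9 and 32.0% without thinning. Processed pseudogenes resemble GLUL, so its reads are uncertain to that extent.

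The metabolic genes both rose. ALDOC (ENSG00000109107) lies at chr17:28573115-28576948 with 9 exons and ALDH1L1 (ENSG00000144908) at chr3:126103562-126197994 with 23, both on the minus strand. ALDOC stood at 50.5 CPM in D0, 129 CPM in HIP_2MPT, 155 CPM in PFC_2MPT, 496 CPM in HIP_4MPT and 452 CPM in PFC_4MPT in astrocyte-like cells, with no overlap between graft stages (log2 fold change 1.76, SE 0.26, edgeR adjusted p = 0.00116). Thinned shares of cells with ALDOC went from 11.1 and 15.1% at 2MPT to 37.6 and 34.4% at 4MPT, against at most 2.44% of neuron-like cells in the grafts. In D0 ALDOC was at 66.1 CPM in neuron-like cells, no lower than in astrocyte-like cells. ALDH1L1 was sparse, at 3.68 CPM in D0, 0 in HIP_2MPT, 2.95 CPM in PFC_2MPT, 16.9 CPM in HIP_4MPT and 16.99 CPM in PFC_4MPT. Its 68 UMIs at 4MPT against 3 at 2MPT gave a ratio of 8.10 (counting interval 2.66 to 40.3) and a log2 fold change of 3.02 (SE 0.76, edgeR adjusted p = 0.0412). This call for ALDH1L1 was close to the threshold and was lost with DESeq2 (adjusted p = 0.399, in a range of 0.00186 to 0.494 over 16 alternatives), in cluster 6 alone (adjusted p = 0.329), in cells of over 1000 UMIs (0.0502), without HIP_2MPT (0.0785) and without HIP_4MPT (0.173). ALDOC and ALDH1L1 each overlap 1 other annotated gene on their own strand, so reads in the shared stretch are uncertain.

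S100B (ENSG00000160307, chr21:46598604-46605208, minus strand, 3 exons) stood at 19.3 CPM in D0, 16.7 CPM in HIP_2MPT, 9.83 CPM in PFC_2MPT, 108 CPM in HIP_4MPT and 106 CPM in PFC_4MPT in astrocyte-like cells. The 4MPT grafts lay together and above the other 3 libraries, with a log2 fold change over 2MPT of 3.17 (SE 0.37, edgeR adjusted p = 0.000113). Oligodendrocyte-lineage markers moved with it in the same cells. Their 7 genes summed to 66.8 and 35.4 CPM at 2MPT and to 320 and 309 CPM at 4MPT, and their part in the rise of S100B was not tested.

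**Figure D2:**
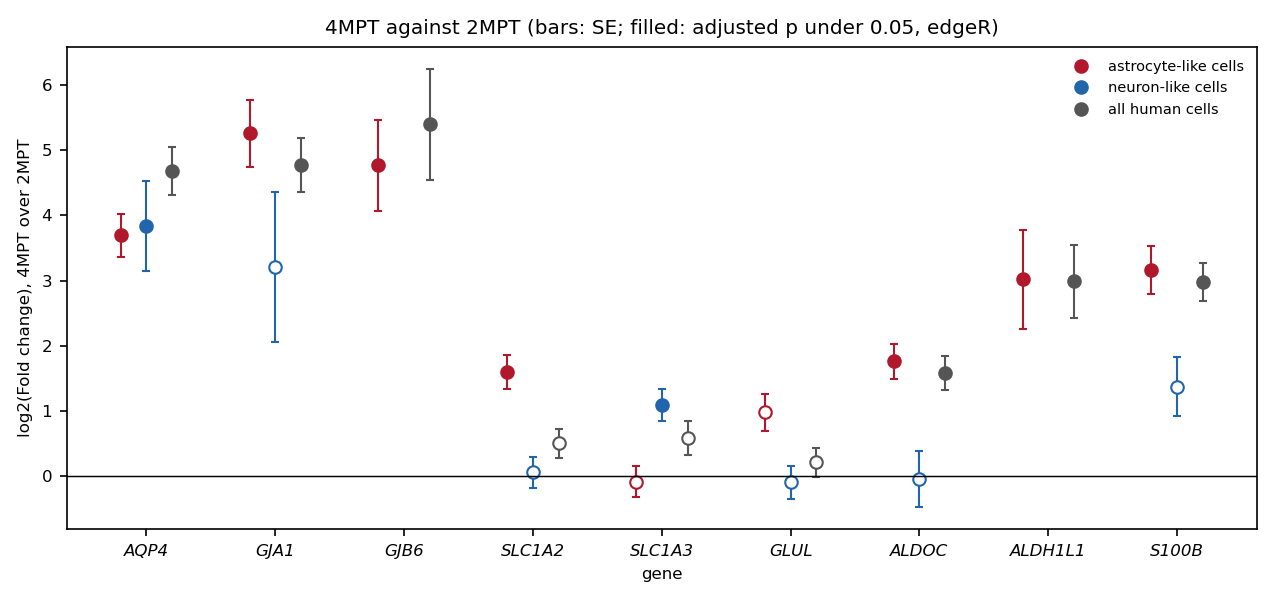
Log2 fold change of 4MPT over 2MPT (vertical axis) for each gene (horizontal axis) in astrocyte-like cells, neuron-like cells and all human cells, with SE bars, filled where the edgeR adjusted p was under 0.05. In astrocyte-like cells GJA1 at 5.26 lay at the upper end and SLC1A3 at −0.08 at the lower end of the 9 genes.

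Neuron markers did not move with these genes in one direction, as the 6 of them summed to 1515 and 388 CPM in the astrocyte-like cells at 2MPT and 437 and 504 CPM at 4MPT. The 7 cycling progenitor markers were higher at 2MPT in these cells, at 396 and 492 against 138 and 151 CPM. The 6 intermediate progenitor markers were at 480 and 200 against 177 and 177 CPM, and the 7 radial glia markers at 6869 and 12595 against 10296 and 11139 CPM. The 8 astrocyte markers that named the class rose with the genes, from 1696 and 2624 CPM at 2MPT to 12028 and 8097 CPM at 4MPT. The part of all these marker differences in the rises was not tested. The 7 calls rested on PFC_4MPT. Without that library 0 of the 7 passed, with edgeR adjusted p from 0.124 for AQP4 and GJA1 to 0.494 for ALDH1L1, and 1 gene of all tested was called. With 1 of the other 3 grafts left out, most of the 9 genes still passed, while the number called among all genes tested varied widely. The fold changes without PFC_4MPT stayed near their values, at 3.95 for AQP4, 5.09 for GJA1, 5.12 for GJB6, 1.63 for SLC1A2, 1.83 for ALDOC, 3.03 for ALDH1L1 and 3.17 for S100B. In cluster 6 alone, which was present at both stages, 6 of the 9 genes were called, against 193 of all 12254 genes tested. There AQP4 went from 44.7 and 31.5 CPM at 2MPT to 503 and 390 CPM at 4MPT, S100B from 9.93 and 9.85 to 54.7 and 64.4 CPM, and GJA1 from 2.48 and 1.97 to 32.2 and 61.5 CPM. Cluster 17 held more GJA1 than cluster 6 in both 4MPT grafts, at 196 and 172 CPM, and more S100B, at 268 and 216 CPM, while ALDOC was lower in cluster 17, at 373 and 306 CPM against 537 and 508 CPM.

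More of the 9 genes were detected together in single cells at 4MPT. Of thinned astrocyte-like cells, 1.10% in D0, 0.823% in HIP_2MPT and 3.77% in PFC_2MPT held UMIs of at least 3 of the 9 genes, against 26.4% in HIP_4MPT and 20.04% in PFC_4MPT. The mean number per cell was 0.341, 0.831, 0.884, 1.86 and 1.63. Neuron-like cells stayed between 0.194 and 0.259 in all 5 libraries. Cluster 18, left unnamed and described below, had means of 1.04, 0.708, 1.06 and 1.54 in the 4 grafts. Of its 26, 48, 104 and 74 thinned cells, 7.69, 0, 3.85 and 17.6% held at least 3 of the genes, so this trait was not confined to astrocyte-like cells. Cells of a library are not replicates, so these are descriptions of 5 libraries.

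**Figure D3:**
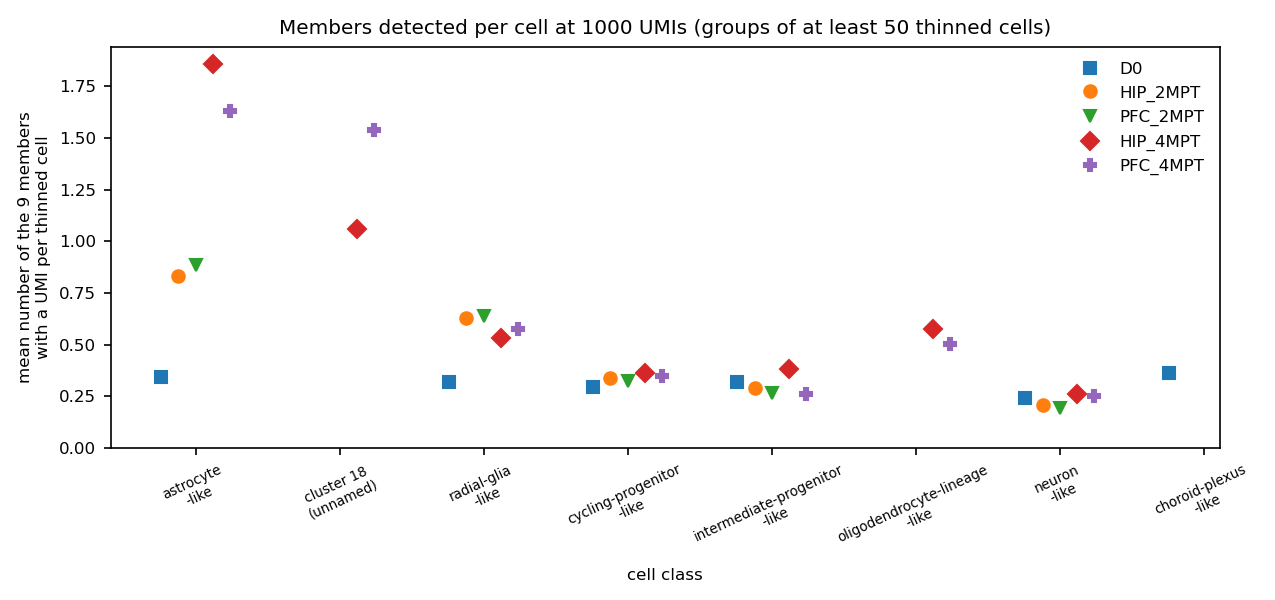
Mean number of the 9 genes with a UMI per cell thinned to 1000 UMIs (vertical axis) by cell class, for groups of at least 50 thinned cells, 1 colour per library. The astrocyte-like cells of the 4MPT grafts reached 1.86 and 1.63, and neuron-like cells lay below 0.26 in every library.

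In the sum of all human cells, 6 of the 9 genes rose between 2MPT and 4MPT, against 1.85% of all genes tested: AQP4, GJA1, GJB6, ALDOC, ALDH1L1 and S100B. In such sums, more cells of a type and more RNA per cell cannot be told apart, and the astrocyte-like share of cells was 3.82 and 5.98% at 2MPT and 8.45 and 5.56% at 4MPT. AQP4 stood at 0.0716 CPM in D0, 3.13 and 3.04 CPM at 2MPT and 103 and 49.9 CPM at 4MPT, HIP before PFC, so that the 4MPT grafts lay apart from all others (log2 fold change 4.68, SE 0.37, edgeR adjusted p = 0.00025). The other 5 rose by log2 fold changes of 4.77 for GJA1, 5.40 for GJB6, 1.58 for ALDOC, 2.99 for ALDH1L1 and 2.98 for S100B. SLC1A2, SLC1A3 and GLUL had values of 0.51, 0.58 and 0.21 and did not pass. With PFC_4MPT or HIP_4MPT left out, which left 1 library at 4MPT, several of the 6 calls in all human cells were lost. Fewer of all genes tested were called then as well, so these losses do not set the 9 genes apart.

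The 9 genes lay in different cells. In both 4MPT grafts more than 50% of the UMIs of AQP4, GJA1, GJB6, ALDOC and ALDH1L1 came from astrocyte-like cells, which held 12.1% of all UMIs in HIP_4MPT and 8.38% in PFC_4MPT. The shares there were 67.2 and 63.4% for AQP4, 85.2 and 56.0% for GJA1, 87.8 and 82.6% for GJB6, 86.3 and 69.2% for ALDOC and 54.3 and 54.5% for ALDH1L1, HIP before PFC. SLC1A2, SLC1A3, GLUL and S100B had at most 40.1% of their UMIs there in either graft. Most transcripts of these 4 genes therefore lay outside the astrocyte-like class.

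**Figure D4:**
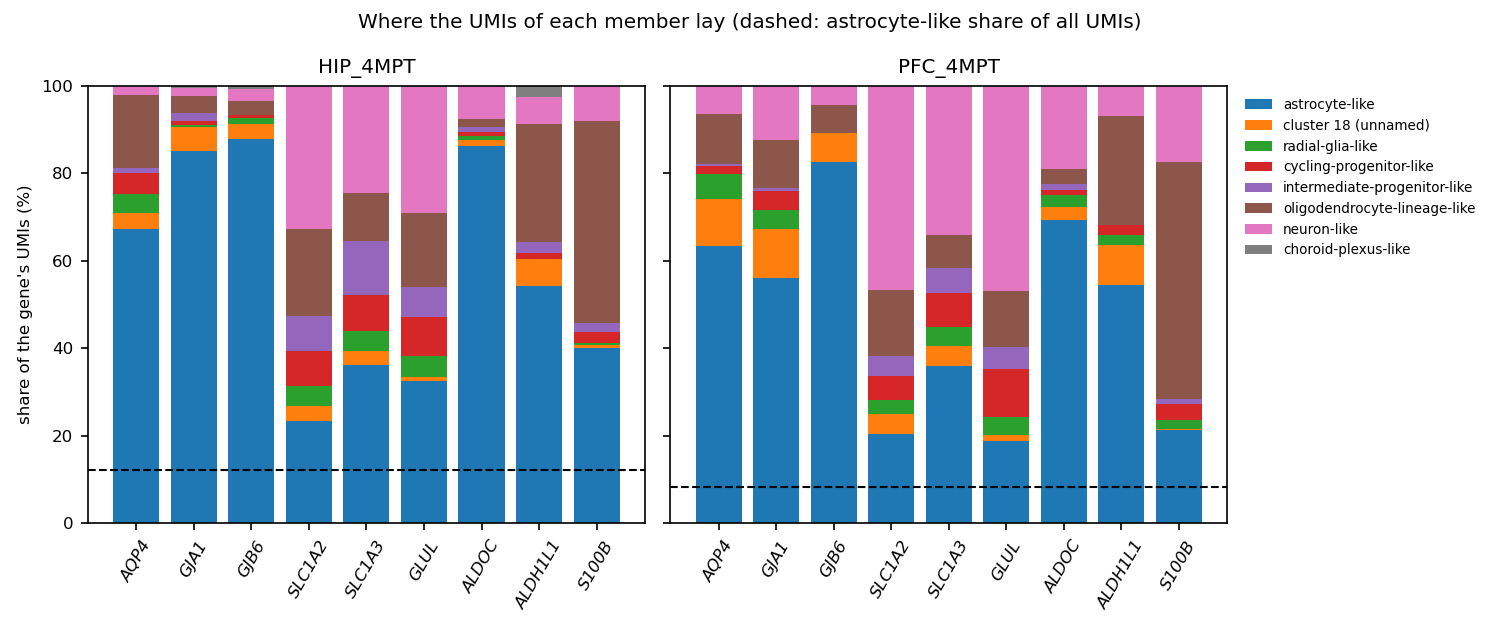
Percent of the UMIs of each gene (vertical axis, 0 to 100) that lay in each cell class, in HIP_4MPT and PFC_4MPT only, 1 panel each. A dashed line marks the astrocyte-like share of all UMIs. In HIP_4MPT 86.3% of ALDOC UMIs and 23.4% of SLC1A2 UMIs were astrocyte-like.

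More S100B at 4MPT lay in oligodendrocyte-lineage-like than in astrocyte-like cells. The former held 46.0% of its UMIs in HIP_4MPT and 54.3% in PFC_4MPT, against 40.1 and 21.3% in astrocyte-like cells. Within that class cluster 19, with 63 and 102 cells in the 4MPT grafts, had S100B at 1218 CPM in HIP_4MPT and 1137 CPM in PFC_4MPT, and 56.5 and 61.6% of its thinned cells held a UMI. AQP4, GJA1, GJB6 and ALDH1L1 were at 0 in cluster 19. Cluster 8, the other oligodendrocyte-lineage-like cluster, held S100B at 22.6 and 55.4 CPM and AQP4 at 131 and 62.5 CPM in the same grafts. The 2 clusters of that lineage therefore differed in which of the 9 genes they carried.

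SLC1A2 was spread over most classes of the grafts. Neuron-like cells held 75.5% of its UMIs in D0, 72.0 and 60.5% at 2MPT and 32.7 and 46.8% at 4MPT, HIP before PFC. Of the UMIs of all genes they held 32.6% in D0, 74.3 and 60.4% at 2MPT and 46.5 and 61.1% at 4MPT. The SLC1A2 share thus lay above the class share in D0, near it at 2MPT and below it at 4MPT. The level of SLC1A2 in neuron-like cells was 72.9 CPM in D0 and 92.7, 94.6, 105 and 85.3 CPM in the grafts. The fold change of this SLC1A2 level between graft stages was smaller than its SE (log2 fold change 4MPT over 2MPT 0.06, SE 0.24, edgeR adjusted p = 0.956). In D0 SLC1A2 was higher in neuron-like than in astrocyte-like cells, and the reverse held in both 4MPT grafts.

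SLC1A3 was carried by radial-glia-like cells as well, at 47.5 CPM in D0, 485 and 543 CPM at 2MPT and 270 and 244 CPM at 4MPT. The 2MPT grafts lay above the 4MPT grafts, with a log2 fold change of −0.87 (SE 0.27) that did not pass (edgeR adjusted p = 0.234). Other markers of that class differed between the stages as well. Its 7 radial glia markers summed to 5991 and 9443 CPM at 2MPT and 3682 and 4859 CPM at 4MPT, and its 7 oligodendrocyte-lineage markers to 159 and 248 CPM at 2MPT and 1755 and 854 CPM at 4MPT, and their part in the SLC1A3 values was not tested. In neuron-like cells SLC1A3 ran the other way, at 8.61 CPM in D0, 55.4 and 48.1 CPM at 2MPT and 116 and 98.2 CPM at 4MPT (log2 fold change 1.09, SE 0.24, edgeR adjusted p = 0.0493). That neuron-like call was lost in every alternative except DESeq2, with adjusted p of 0.0506 to 0.215 in the others. Different clusters made up the neuron-like class at each stage. Inhibitory cluster 7 had 13 and 17 cells at 2MPT and 246 and 1085 at 4MPT, cluster 9 had 23 and 27 against 88 and 935, and 1055 of the 1931 cells of D0 lay in cluster 10. The 6 inhibitory neuron markers of the class summed to 4.57 and 19.7 CPM at 2MPT and 205 and 599 CPM at 4MPT, the 7 glutamatergic markers to 1437 and 1676 against 757 and 667 CPM, and the 8 astrocyte markers to 54.2 and 42.2 against 125 and 115 CPM. In each of clusters 0, 1, 2 and 4, which were well filled at both stages, SLC1A3 was also higher in both 4MPT grafts than in both 2MPT grafts. In cluster 0 it was at 48.3 and 45.3 against 119 and 89.5 CPM, and in cluster 4 at 38.3 and 39.5 against 92.9 and 105.9 CPM. Over the 3 classes, the fold change of SLC1A3 was near 0 in astrocyte-like cells and had opposite signs in the others.

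In radial-glia-like cells 7 of the 9 genes were tested, GJB6 and ALDH1L1 being too sparse, and AQP4 alone rose between 2MPT and 4MPT, against 0.562% of all genes tested. Its level was 0 in D0, 25.5 CPM in HIP_2MPT, 11.2 CPM in PFC_2MPT, 118 CPM in HIP_4MPT and 88.1 CPM in PFC_4MPT (log2 fold change 2.96, SE 0.47, edgeR adjusted p = 0.00198). AQP4 thus rose with stage in these cells too, at a lower level than in the astrocyte-like cells of each graft, but the call was lost without PFC_2MPT (log2 fold change 2.21, adjusted p = 0.0958). The radial glia and oligodendrocyte-lineage markers of this class differed between the same libraries, as given above for SLC1A3, and their part in the AQP4 rise was not tested. In neuron-like cells 7 genes were tested too, and AQP4 and SLC1A3 rose, against 0.968% of all genes tested. AQP4 there was at 0.601 and 0.109 CPM at 2MPT and 4.51 and 5.33 CPM at 4MPT, in 1.07 and 0.849% of cells at 4MPT without thinning (log2 fold change 3.83, SE 0.69, edgeR adjusted p = 0.0201). This AQP4 call was lost without PFC_4MPT (log2 fold change 3.68) and with no filter on low counts, where 0 of all genes tested were called. Its adjusted p reached 0.181 over 15 alternatives. The astrocyte-like level of AQP4 moved with it across the same libraries, and the part of free RNA in the neuron-like value was not tested.

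Cluster 18, left unnamed and led by KIRREL3, OBI1-AS1, TNC and EGFR, also carried several of the genes. It had no cell in D0 and 41, 56, 119 and 83 cells in the grafts. AQP4 in it was at 47.9 and 14.5 CPM at 2MPT and 273 and 534 CPM at 4MPT, SLC1A3 at 559, 704, 479 and 775 CPM, and SLC1A2 at 319, 225, 350 and 493 CPM. GJA1 reached 153 CPM there in PFC_4MPT and 38.5 CPM in HIP_4MPT.

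**Figure D5:**
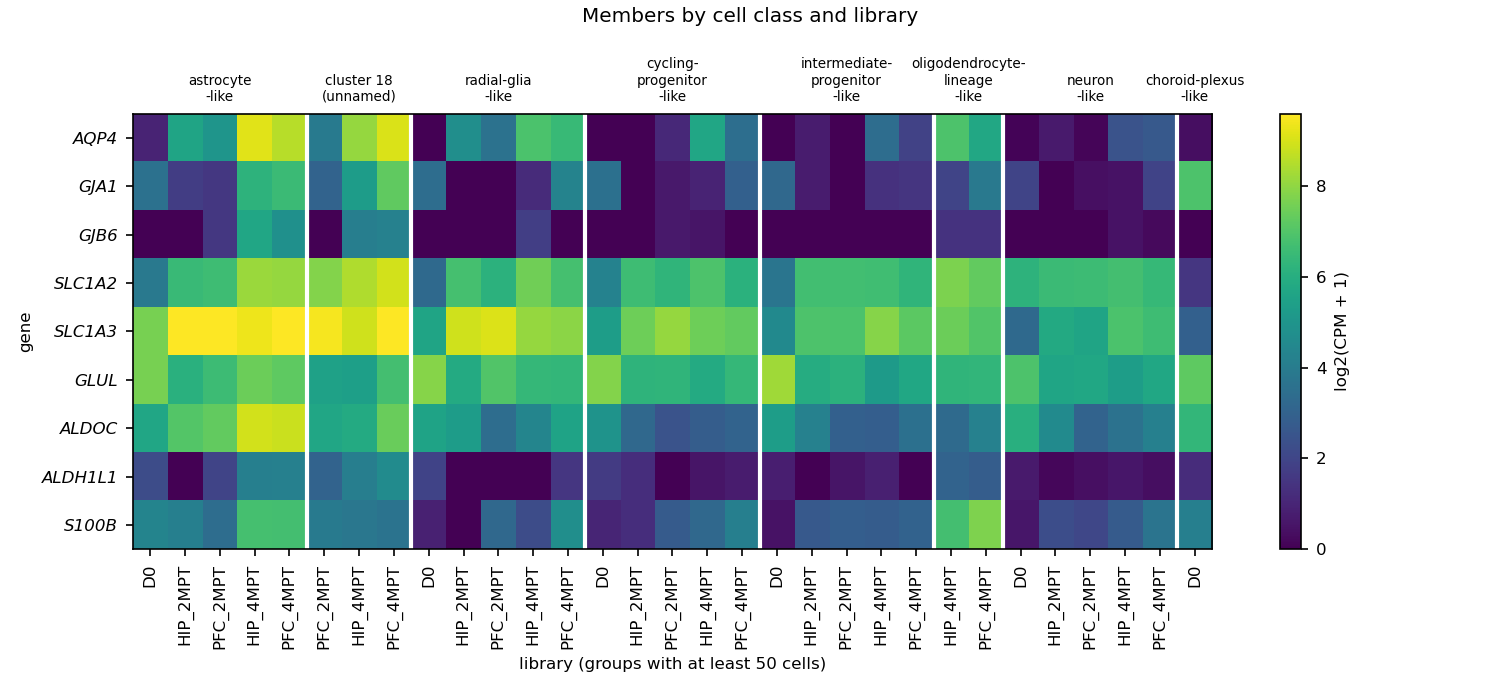
Level of the 9 genes (rows) by cell class and library (columns), as log2(CPM + 1) on the colour scale at the right. Among groups of at least 50 cells, AQP4, GJB6 and ALDOC were highest in the astrocyte-like cells of the 4MPT grafts among the named classes, whereas GJA1 was high in the choroid-plexus-like cells of D0 (121 CPM) and SLC1A2 was present in nearly every class of the grafts.

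Against D0, the comparison asks what differed between organoid and graft. With 1 library, D0 was given the spread seen among grafts. It differs from them in depth, enzyme and annotation, which cannot be told apart from transplantation. In all human cells 3 genes were higher at 2MPT than in D0, against 27.2% of all genes tested, and 4 were lower, against 21.1%. The higher genes were AQP4 (log2 fold change 4.99, SE 0.67), SLC1A2 (1.24, SE 0.29) and SLC1A3 (1.86, SE 0.35). The lower genes were GJA1 (−5.90, SE 0.43), GLUL (−2.02, SE 0.26), ALDOC (−1.64, SE 0.29) and ALDH1L1 (−2.35, SE 0.62), with edgeR adjusted p of at most 0.00984 for these 7. The members' counts stand against these large shares of all genes.

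GJA1 in all human cells was at 21.5 CPM in D0, 0.447 CPM in HIP_2MPT, 0.462 CPM in PFC_2MPT, 10.4 CPM in HIP_4MPT and 13.8 CPM in PFC_4MPT. D0 was the highest library and the 2MPT grafts the lowest. In D0, 69.6% of GJA1 UMIs lay in choroid-plexus-like cells, a class of 404 cells in D0 and of 0, 2, 1 and 1 cells in the grafts, at 121 CPM. Most GJA1 transcripts of D0 therefore lay in a class that the grafts nearly lacked. GLUL in D0 was spread over classes, at 303 CPM in intermediate-progenitor-like, 231 CPM in radial-glia-like and 121 CPM in neuron-like cells, and was lower in each of these classes in all 4 grafts.

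At 4MPT, 5 genes were higher than in D0 in all human cells, against 28.7% of genes tested, and 2 were lower, against 21.4%. AQP4 was higher by a log2 fold change of 9.66 (SE 0.68) and S100B by 3.31 (SE 0.38), SLC1A3 by 2.44 (SE 0.36) and SLC1A2 by 1.74 (SE 0.30). GJB6, with no UMI in D0, was 94.3-fold higher in CPM with D0 set at a floor of 3 counts. GJA1 (−1.13, SE 0.34) and GLUL (−1.81, SE 0.26) were lower, with edgeR adjusted p of at most 0.0191 for the 7 genes. The GJA1 call was lost without HIP_4MPT (log2 fold change −0.89, adjusted p = 0.120). ALDOC (−0.06) and ALDH1L1 (0.64) did not pass. ALDOC was at 52.5 CPM in D0, 25.9 and 17.4 CPM at 2MPT and 69.8 and 54.7 CPM at 4MPT, so that the 2MPT grafts were the low ones.

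Radial-glia-like cells were a class that D0 and grafts shared after integration. Clustered without integration, 1175 cells of D0 but only 1 graft cell were radial-glia-like, so the shared class rested on that step. Within the integrated class, 3 of the 7 genes tested were higher at 2MPT than in D0 (15.5% of all genes tested) and 3 were lower (11.3%). SLC1A3 (log2 fold change 3.08, SE 0.37), SLC1A2 (2.88, SE 0.44) and AQP4 were higher. AQP4, with 12 UMIs at 2MPT and no UMI in D0, was 59.8-fold higher in CPM with D0 set at a floor of 3 counts. GLUL (−1.51, SE 0.36) and ALDOC (−1.83, SE 0.58) were lower, and GJA1, with no UMI at 2MPT, was 2.81-fold lower with 2MPT set at that floor. At 4MPT 4 were higher than in D0 (18.3% of genes tested) and 1 was lower (14.3%). These were AQP4, 459-fold with D0 at that floor, SLC1A2 (3.83, SE 0.44), SLC1A3 (2.21, SE 0.35) and S100B (3.76, SE 1.38) upward, and GLUL (−1.72, SE 0.35) downward, with edgeR adjusted p of at most 0.0437 at both stages. In this class the 2MPT calls of GJA1 and ALDOC were lost without PFC_2MPT (adjusted p = 0.245 and 0.548) with DESeq2 (0.226 and 0.331) and at resolution 1.6 (0.124 and 0.0568), and that of GJA1 also with a mitochondrial share under 10% (0.0608). The 4MPT call of S100B was lost with DESeq2 (0.0961), at resolution 1.6 (0.101) and with the 9 genes kept in the clustering (0.0502). It rested on 17 UMIs at 4MPT against 11 in D0, at 3.72 CPM in HIP_4MPT, 25.7 CPM in PFC_4MPT and 0.846 CPM in D0. Without PFC_4MPT, S100B and GJA1 were too sparse to test in this class. SLC1A3, SLC1A2 and AQP4 were above D0 in this class at both graft stages, and GLUL below it.

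The graft site was compared over both stages, with 1 residual degree of freedom. None of the 9 genes was called between PFC and HIP in astrocyte-like cells, where 0.0882% of genes tested were, or in all human cells, where 0.0827% were (edgeR). No unadjusted edgeR p was under 0.05 for any of the 9 in either (0 of 9). Of all genes tested, 348 of 11332 in astrocyte-like cells and 443 of 18127 in all human cells had one. DESeq2 called 0 of 9 as well, against 2 and 7 of these genes. With such low shares, 0 of 9 does not set the 9 genes apart. In astrocyte-like cells the log2 fold changes, PFC over HIP, ran from −0.72 for GJB6 (SE 0.51) to 0.31 for GJA1 (SE 0.42), and AQP4 was at −0.58 (SE 0.32). AQP4 was lower in PFC than in HIP at both stages, though at 2MPT the counting intervals overlapped, and GJB6 was lower in PFC at 4MPT and had its 2 UMIs of 2MPT in PFC, so that its sign turned when a 4MPT graft was left out (3.99 without HIP_4MPT and 4.45 without PFC_4MPT). With SEs of this size, differences between sites of the order seen for AQP4 were not detectable by this test.

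The list of 35 other genes of water, glutamate, coupling, potassium and metabolism was tested in the same fits, here for astrocyte-like cells. From 2MPT to 4MPT 10 rose, 0 fell, 15 did not pass and 10 were too sparse to test, with a median log2 fold change of 1.08 among those tested. Of all genes tested 2.05% rose, and their median was −0.01. The list was drawn up with earlier results of these data known. The 5 largest rises were in SLC7A11, the cystine-glutamate exchanger (2.84, SE 0.48), SLC4A4, a sodium-bicarbonate cotransporter (2.62, SE 0.33), SLC6A11, a GABA transporter (2.52, SE 0.41), S100A16, a relative of S100B (2.41, SE 0.39), and DTNA, a dystrobrevin of the complex that holds AQP4 at end-feet (2.05, SE 0.28), with edgeR adjusted p of at most 0.00308. SLC7A11 was at 2.76 CPM in D0, 4.77 and 6.88 CPM at 2MPT and 33.4 and 56.6 CPM at 4MPT, with no overlap between stages. DTNA was at 23.9, 47.7, 57.0, 219 and 212 CPM. GLUD1, HEPACAM, MLC1 and S100A13 were among the others that rose.

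In all human cells 9 of the 35 rose between the graft stages, against 1.85% of all genes tested, and 0 fell, and in radial-glia-like and in neuron-like cells edgeR called 0 of those tested, which were 17 and 28 genes. Of all genes, 81 of 10324 were called in radial-glia-like and 260 of 17353 in neuron-like cells. Between PFC and HIP 0 of the 29 listed genes tested in all human cells were called, against 0.0827% of all genes tested. In astrocyte-like cells 0 of 21 were, against 0.0882%. With such low shares, 0 calls do not set the list apart.

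Across the 28 sums of a library and a class with at least 50 cells, the 9 genes followed their common mean to different degrees. Pearson's r of log2(CPM + 1) with the mean of the scaled 9 genes was 0.91 for GJB6, 0.84 for ALDH1L1, 0.82 for AQP4, 0.76 for S100B, 0.70 for ALDOC, 0.67 for GJA1, 0.54 for SLC1A3, 0.40 for SLC1A2 and 0.33 for GLUL. Each gene is part of that mean, and the 28 points share libraries and depth. The closest pair was GJB6 and ALDH1L1 (r = 0.74) and the farthest SLC1A2 and GLUL (r = −0.55). Among 15987 genes, the 10 with the profile most like the mean included C1QL2, AGT, OAT, CLDN10, ACSBG1, GATM, SLC25A18, GPM6B and GPR137B, with r from 0.889 to 0.935. AGT is among the markers that named the class, and 6 of the 10 were also among the first 10 with a pseudocount of 10.

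Host RNA was checked in a second count of the grafts against a joint human and mouse reference. There, human counts of each of the 9 genes in human cells were between 96.1% (GJA1) and 100% (AQP4) of those from the human reference alone, summed over the 4 grafts. The sparse counts of PFC_2MPT lost more, with 5 of 7 UMIs left for GJA1, 2 of 3 for GJB6 and 6 of 8 for ALDH1L1. Fitted on the joint reference, all 7 calls in astrocyte-like cells passed, with log2 fold changes of 5.79 for GJA1, 4.75 for GJB6 and 2.98 for ALDH1L1. Of all 11311 genes tested in that fit, 214 rose. Mouse UMIs made up 4.21, 1.07, 2.82 and 6.54% of all UMIs in human cells of the 4 grafts. The mouse gene of the same name had 38 UMIs against 3143 human UMIs for AQP4, 224 against 11430 for SLC1A3 and 1012 against 7581 for SLC1A2. It had 101 against 467 for GJA1, 32 against 136 for ALDH1L1, 402 against 1532 for S100B, 54 against 197 for GJB6, 1174 against 4068 for GLUL and 1006 against 2975 for ALDOC. Summed over the 4 grafts and relative to its human UMIs, ALDOC thus lay beside the most host transcripts of the same gene, and AQP4 beside the fewest. Single libraries differed from this order. In PFC_4MPT ALDOC had 703 mouse against 923 human UMIs and GJB6 41 against 46. GJA1 had 5 against 5 in HIP_2MPT and 7 against 7 in PFC_2MPT.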

How the data were processed

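The deposited files hold UMI counts per gene and cell barcode, made by the authors with Cell Ranger (3.1 per the submitters' processing notes, which also name GRCh38 and R 4.1.1) from 10x Genomics 3′ libraries. The file headers name release 3.1.0 for D0 and 5.0.0 for the grafts. D0 lists 33538 genes and each graft 36601, and the grafts were also counted against a joint human and mouse reference. The tables hold no coordinates, so loci are from a GENCODE annotation of GRCh38. Promoters are from RefSeq (GRCh38.p14), where 7 of the 9 genes had an entry.

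Human cells were barcodes with more than 500 UMIs and 500 genes, log10 genes divided by log10 UMIs above 0.80, a mitochondrial share under 15% and, in grafts, more than 80% human UMIs in the joint reference. No doublet caller was run, and barcodes of mixed species were removed. Cells were normalized by library (SCTransform, sctransform 0.4.2), integrated and clustered in Seurat 5.3.0 on 2500 variable genes, without the 9 genes, with 40 principal components and a resolution of 0.8, and clusters were named from marker lists. UMIs were summed by library and class and tested with edgeR 4.0.16 (quasi-likelihood, TMM, filterByExpr, Benjamini-Hochberg over all genes tested, threshold 0.05) with stage as the factor, D0 included where it had at least 50 cells of the class, or with site and stage in the 4 grafts. Log2 fold changes are on the TMM scale. Shares were taken after thinning to 1000 UMIs. A floor is 3 counts over a group, and fold values against a floor are ratios of CPM, not on the TMM scale, with no counting interval. Total UMIs per library were 12451092 to 57135277, and Clopper-Pearson and Poisson intervals cover counting error only. The scripts were tested on simulated data with known changes. For 4MPT against 2MPT in astrocyte-like cells, edgeR found 12 of 100 2-fold and 66 of 100 4-fold changes, with 6 false calls. In radial-glia-like cells it found 7 and 51 of 100, and in all human cells 15 and 99. Most 2-fold changes were thus missed.

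All 9 genes are named in every comparison, and of the 35 partner genes the 5 called per direction with the largest change in astrocyte-like cells. The genes, lists and tests were chosen with earlier results of these data known. Alternatives were DESeq2 1.42.0, no filter on low counts, other cell filters, resolution 1.6, no integration, the 9 genes kept in the clustering, the joint reference, the graft site as a block, and each graft left out. Cluster 6 alone and a fit without D0 were added after the data were seen. Python 3.11.15 and R 4.3.3 were used.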

Additional observations from a re-analysis of the deposited data

Results flagged for a closer look

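Host transcripts of the same genes, outside the human comparisons, were present in the barcodes dominated by mouse reads, which numbered 1064 and 812 at 2MPT and 2163 and 1204 at 4MPT, HIP before PFC. Over the 4 grafts these barcodes held 197 UMIs of mouse Aqp4, 648 of Gja1, 360 of Gjb6, 2120 of Slc1a2, 2958 of Slc1a3, 12328 of Glul, 2292 of Aldoc, 126 of Aldh1l1 and 1274 of S100b.

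In neuron-like cells 2 genes moved in opposite directions at the 2 graft sites between 2MPT and 4MPT. The ratio of CPM, 4MPT over 2MPT, for SLC1A2 was 1.13 (95% counting interval 1.03 to 1.24) in HIP and 0.901 (0.819 to 0.991) in PFC. For ALDOC it was 0.487 (0.383 to 0.617) in HIP and 2.35 (1.76 to 3.17) in PFC. The neuron-like cells of the sites differed in make-up, with 1085 cells of inhibitory cluster 7 and 935 of cluster 9 among 6010 in PFC_4MPT, 246 and 88 among 3924 in HIP_4MPT, and at most 27 of either at 2MPT. In each of clusters 0, 1, 2 and 4 alone, ALDOC was lower at 4MPT than at 2MPT in HIP and higher in PFC. SLC1A2 did not keep its direction in all 4. In cluster 1 of the HIP grafts its level was 121 CPM at the earlier stage and 120 CPM at the later, and in cluster 0 of the PFC grafts it was 79.0 CPM and then 83.5 CPM. With 1 library per site and stage, the difference between sites was not tested, and counting intervals do not cover the spread between grafts. The share of all genes with such opposite directions was not counted, so these 2 genes are not set apart from others. Across 17353 genes in neuron-like cells, the difference HIP − PFC at 2MPT and that at 4MPT correlated at r = −0.250.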

How the results depend on the processing

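Of 988 values of the 9 genes recomputed under the alternatives, 888 kept their direction and their side of the threshold, or moved by less than the spread where there was no test. In astrocyte-like cells (4MPT against 2MPT, 330 genes called), DESeq2 called 142, no filter 614, cluster 6 alone 193 and leaving out 1 graft 1 to 575, the lowest without PFC_4MPT and the highest without PFC_2MPT. In all human cells (457) no filter gave 1347 and leaving out 1 graft 32 (without PFC_4MPT), 207 (without HIP_4MPT) to 1508 (without PFC_2MPT). In radial-glia-like cells (81) DESeq2 gave 32, no filter 144, resolution 1.6 40, the 9 genes kept in the clustering 47, the joint reference 47, no D0 42, and leaving out 1 graft 65 to 127 (124 without HIP_2MPT, 126 without PFC_2MPT and 127 without PFC_4MPT). In neuron-like cells (260) no filter gave 0, with 2 fewer of the 9 genes called, and leaving out 1 graft gave 150 (without HIP_2MPT) to 433 (without PFC_2MPT). Against D0, radial-glia-like calls (2766 at 2MPT, 3364 at 4MPT) were 1248 and 1446 with DESeq2, 1772 and 1898 at resolution 1.6, and 1612 to 2863 and 2122 to 3860 with 1 graft left out, the lowest without PFC_2MPT and HIP_4MPT.

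Between PFC and HIP, all human cells (15) gave 7 with DESeq2, 36 with no filter, 33 with a human share over 90%, 33 with a mitochondrial share under 10%, 5 over 1000 UMIs and 0 without stage. Astrocyte-like cells (10) gave 2 with DESeq2, 17 with no filter, 2, 16 and 2 with those cell filters, 16 at resolution 1.6, 4 without integration, 16 in the joint reference, 2 in cluster 6 alone and 0 without stage. None of the 9 genes was called in any of these. In cluster 6 alone 2 genes, not 5, had over 50% of their UMIs in the class in both 4MPT grafts, and 6 of the 10 genes most like the mean were shared with a pseudocount of 10.

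Graft site pairs the stages by label only, since nothing ties the grafts of a site together. The difference HIP − PFC at 2MPT and at 4MPT correlated across genes at r = −0.235 in all human cells, −0.074 in astrocyte-like, −0.070 in radial-glia-like and −0.250 in neuron-like cells. With the site as a block, 733 genes were called in all human cells, 454 in astrocyte-like, 26 in radial-glia-like and 540 in neuron-like cells, and of the 9 genes only SLC1A3 in neuron-like cells lost its call (adjusted p = 0.0583).

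Changes of sign were limited to values that did not pass the test, and ranges are over leaving out 1 graft. Between 4MPT and 2MPT the log2 fold change of SLC1A3 in astrocyte-like cells ran from −0.18 to 0.029 (without HIP_4MPT). In radial-glia-like cells GLUL ran from −0.52 to 0.71 (without PFC_2MPT) and was 0.098 at resolution 1.6, and ALDOC ran from −0.085 (without PFC_2MPT) to 1.78. In neuron-like cells GLUL ran from −0.32 to 0.12 (without HIP_4MPT), SLC1A2 from −0.046 (without HIP_4MPT) to 0.18, and ALDOC from −0.64 to 1.00 (without HIP_2MPT; 0.25 without HIP_4MPT), with 0.11 for ALDOC under the site block. Against D0, S100B at 2MPT in radial-glia-like cells ran from −4.70 (without PFC_2MPT) to 2.92, and ALDOC at 4MPT in all human cells from −0.18 to 0.13 (without PFC_4MPT), with 0.0064 at a human share over 90%. GJA1 at 4MPT in radial-glia-like cells ran from −0.40 to 0.70 (without HIP_4MPT) and was 0.93 at resolution 1.6, where ALDOC was 0.056. Between PFC and HIP, ALDH1L1 in all human cells was 0.11 with DESeq2, 0.10 with a human share over 90% and 0.033 with a mitochondrial share under 10%. In astrocyte-like cells ALDH1L1 was −0.033 without integration and −0.12 without stage, SLC1A2 −0.086 without integration, −0.024 with the 9 genes kept and −0.044 without stage, ALDOC −0.051 without stage, and S100B 0.19 in cluster 6 alone. With 1 graft left out, the site difference rests on the other stage and has no test. It then ran in astrocyte-like cells from −0.88 to 4.45 for GJB6, −0.23 to 0.34 for GJA1, −0.19 to 0.55 for GLUL, −0.13 to 0.31 for ALDOC and −0.065 to 0.16 for SLC1A2, and in all human cells from −1.24 to 4.72 for GJB6, −0.43 to 0.98 for ALDH1L1, −0.22 to 0.61 for SLC1A3 and −0.32 to 0.0049 for SLC1A2, negative without a 2MPT graft and positive without a 4MPT graft except for GJA1, where it was the reverse. The cause of these changes was not tested. Clustering without integration left 1 radial-glia-like graft cell, so that fit was not run. Depth limits GJA1, GJB6 and ALDH1L1 at 2MPT, with 3, 2 and 3 UMIs in astrocyte-like cells.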
